A study of Homo sapiens with 74 samples.

Results

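SLC4A1, which encodes band 3, and 8 further genes of the red cell membrane skeleton (ANK1, SPTB, EPB41, EPB42, DMTN, ADD2, TMOD1 and GYPC) were followed through RNA-seq of K562 and HEL cells. The 9 genes were taken by symbol from gene tables that each list 28131 genes, and all of them were found in both. K562 and HEL are established human erythroleukaemia lines that carry part of the red cell programme. The K562 groups were wild type (control), DOT1L-/- (DOT1L KO) and ENL-/- (ENL KO), and the HEL groups were control and DOT1L knockdown (KD). DOT1L is the methyltransferase of lysine 79 of histone H3, and ENL, encoded by MLLT1, is a partner of DOT1L that binds acetylated histones. Of 74 samples, 13 were RNA-seq and were used, and the remaining 61 come from other assays and were not analysed here. Whether the knockout cells were single clones, and by which reagent DOT1L was knocked down, is not given in the sources used here. The labels do not say that replicates were separate cultures, so p-values measure only the spread between these libraries, which may be technical. Beyond counting error, replicates varied by an estimated 6.34% in K562 and 1.83% in HEL, so smaller changes could pass in HEL.

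The red cell membrane is held to its skeleton at 2 kinds of junction. At the ankyrin junction, ankyrin (ANK1) ties the anion exchanger band 3 (SLC4A1) to beta spectrin (SPTB), and EPB42, a transglutaminase relative without enzyme activity, binds both band 3 and ankyrin. At the actin junction, short actin filaments capped by tropomodulin (TMOD1) are joined by spectrin, beta adducin (ADD2) and dematin (DMTN), while EPB41 connects the junction to glycophorin C (GYPC). Inherited loss of ankyrin, spectrin, band 3 or EPB42 is a cause of hereditary spherocytosis, in which the cell loses membrane and turns round. Band 3 also carries bicarbonate out of the red cell in exchange for chloride, and it appears late in red cell maturation.

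The sequences before the annotated starts of EPB42, TMOD1 and SPTB are shown because, with loss of DOT1L in K562, EPB42 and TMOD1 changed by more than 2-fold and SPTB by 1.32-fold. They are RefSeq sequences on GRCh38.p14, each covering the 250 bases before a start and written 5′ to 3′ on the strand of the gene. Capitals mark matches to 3 kinds of motif on either strand. For the GATA motif the letters AGATAA were searched, and besides them AGATAG, together with TGATAA and finally also with TGATAG. The CACCC motif was searched as CCACCC and in its longer form as CCACACCC. The E-box was searched as CAGATG, and it was also searched as CAGCTG. No match overlapped another in these windows.
EPB42, chr15:43221019-43221268, minus strand: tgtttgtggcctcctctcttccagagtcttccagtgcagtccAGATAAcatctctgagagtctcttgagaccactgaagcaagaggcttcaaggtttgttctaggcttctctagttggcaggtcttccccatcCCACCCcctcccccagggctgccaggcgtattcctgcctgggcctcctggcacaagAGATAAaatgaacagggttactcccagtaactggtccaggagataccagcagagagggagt
TMOD1, chr9:97501416-97501665, plus strand: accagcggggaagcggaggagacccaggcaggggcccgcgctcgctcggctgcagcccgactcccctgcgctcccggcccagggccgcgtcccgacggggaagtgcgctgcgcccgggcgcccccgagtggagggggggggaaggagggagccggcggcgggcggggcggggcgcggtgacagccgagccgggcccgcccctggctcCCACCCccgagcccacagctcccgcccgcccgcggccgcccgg
SPTB, chr14:64879908-64880157, minus strand: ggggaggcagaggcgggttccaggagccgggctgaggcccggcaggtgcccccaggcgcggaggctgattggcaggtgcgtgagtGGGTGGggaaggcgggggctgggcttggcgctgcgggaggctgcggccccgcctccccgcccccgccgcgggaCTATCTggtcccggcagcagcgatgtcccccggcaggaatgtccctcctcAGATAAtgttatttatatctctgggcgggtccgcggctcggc
In EPB42, AGATAA begins 208 and 61 bases before the start and CCACCC 117 bases before it. The SPTB window holds a GATA match on the opposite strand 92 bases before the start, AGATAA at 42 bases and a CACCC match on the opposite strand at 165 bases. The TMOD1 window holds CCACCC at 43 bases and none of the GATA or E-box letters searched. TMOD1 and SPTB each have another start in the table, whose windows are not shown: that of TMOD1, at the start of the gene as listed, held no match, and that of SPTB held 1 E-box match and none of the other letters. Promoter sequences matched 6 of the 9 genes with 10 starts in all, and those of SLC4A1, ANK1 and DMTN were not used here. A GATA match was found before 5 of the 10 starts, a CACCC match before 5 and an E-box match before 2. Over all 35116 promoter windows of the same length, 22.3% held a GATA match, 33.1% a CACCC match and 24.3% an E-box match. These matches describe the letters only.

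The libraries held 15404944 to 29236703 fragments in K562 and 12151495 to 12811688 reads in HEL, and 3 counts, the limit that a count of 0 allows, were worth 0.103 to 0.247 CPM (counts scaled to a common library size with TMM factors). K562 control columns 2 and 3 were identical in every gene and were counted as 1 library, leaving 2 K562 control, 3 DOT1L KO and 3 ENL KO libraries beside 2 HEL control and 2 KD libraries. DOT1L messenger RNA was 269.8 and 256 CPM in the K562 controls and 176 to 186 CPM in the DOT1L KO, and 97.5 and 87.4 CPM in the HEL controls against 29.1 and 30.0 CPM in the KD. MLLT1 was 214 and 219 CPM in the K562 controls and 153 to 157 CPM in the ENL KO. The ENL KO labels name no sequencing lane whereas the K562 control and DOT1L KO labels do, so an effect of the ENL knockout and one of a batch cannot be told apart. All 14 erythroid markers had counts in each group, and their summed level ranged over 7291 to 7866 CPM in K562 controls, 11515 to 12184 CPM in the DOT1L KO, 9392 to 9666 CPM in the ENL KO, 7239 to 7349.6 CPM in HEL controls and 10122 to 10791 CPM in the KD. The 10 megakaryocytic markers summed to 23.2 to 25.7, 61.2 to 62.8, 141 to 148, 2899 to 2952 and 2236 to 2238 CPM in the same order, with 6 of the 10 at 0 in K562 controls, among them GP1BA, GP9 and PF4. The 10 granulocyte and monocyte markers summed to 80.0 to 81.8, 386 to 419, 29.4 to 35.9, 174 to 182 and 202 to 210.1 CPM, and ELANE was at 0 in all groups but the K562 control. The 6 lymphoid markers summed to 54.0 to 55.6, 17.4 to 22.0, 62.2 to 73.2, 1.84 to 1.98 and 1.27 to 1.30 CPM, with MS4A1 at 0 throughout. Single genes made up much of some of these sums. In the K562 control, DOT1L KO and ENL KO, the lymphoid marker CD3D averaged 51.9, 17.4 and 66.0 CPM. In the same groups LYZ (granulocyte and monocyte) averaged 34.0, 310.3 and 19.8 CPM, and TUBB1 (megakaryocytic) 15.8, 27.7 and 112 CPM. In K562 controls the largest erythroid markers were TFRC, HBG2 and HBZ. Over the same groups TFRC averaged 2314, 1921 and 1936 CPM, lower in both knockouts. HBG2 averaged 1716, 2576 and 2018 CPM and HBZ 1028, 2796 and 1569 CPM. The erythroid marker AHSP stood at 0 and 0.0799 CPM in the HEL control libraries. The part that the other programmes have in the results was not tested. In bulk RNA, fewer cells of a type and less RNA per cell cannot be told apart.

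Loss of DOT1L in K562 raised 7 of the 9 genes and lowered none, at an adjusted p of 0.05. The test here and below was the quasi-likelihood test of edgeR, and p-values were adjusted by the Benjamini-Hochberg method over the whole table. The 7 were SLC4A1, EPB42, TMOD1, DMTN, ANK1, SPTB and EPB41, while ADD2 and GYPC did not pass. Of all 14301 genes tested in K562, 51.1% passed in this comparison (26.9% higher and 24.2% lower), so a gene past the threshold is common in these data. The library ranges of knockout and control did not overlap in 9 of 9 genes, against 68.1% of all genes. The median log2 fold change of the 9 genes was 0.43, beside 0.011 over all genes.

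Loss of ENL gave another pattern. SLC4A1, DMTN, TMOD1, GYPC and EPB41 rose, ADD2 and EPB42 fell, and ANK1 and SPTB did not pass, which makes 7 of 9 genes past the threshold against 41.0% of all genes (18.8% higher and 22.2% lower). Library ranges did not overlap in 8 of 9 genes, SPTB being the exception, against 59.6% of all genes. The median log2 fold change was 0.24 over the 9 genes and 0.003 over all genes. Both knockouts were compared with the same 2 control libraries, so the 2 sets of changes are not independent. When the knockouts were set against each other, 9 of 9 genes differed, 7 higher in the DOT1L KO and 2 (DMTN and GYPC) higher in the ENL KO, against 60.2% of all genes (31.8% higher in the DOT1L KO and 28.3% lower). Their library ranges did not overlap either, as was the case in 63.3% of all genes.

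In HEL, DOT1L knockdown raised SLC4A1, TMOD1, GYPC, EPB41 and SPTB and lowered ADD2, DMTN and EPB42, and ANK1 did not pass. These are 8 of 9 genes, among them SLC4A1, which entered the test only through the KD libraries and had to be higher in them. Without it 7 of 8 genes passed, where 55.0% of the 12635 genes tested in HEL passed (27.0% higher and 28.0% lower). The ranges of KD and control libraries did not overlap in 9 of 9 genes, against 75.9% of all genes. For SLC4A1, counted among the 9, this too was fixed by the filter. With upper-quartile factors in place of TMM, 4412 of 7180 genes past the threshold in HEL were higher, against 3411 of 6951, and DMTN and EPB42 no longer passed. The median log2 fold change was 0.27 over the 9 genes, SLC4A1 included, and 0.013 over all genes. A change of at least 2-fold that passed the threshold was seen for SLC4A1, EPB42 and TMOD1 in the DOT1L KO (15.8% of all genes). It was seen for SLC4A1 and DMTN with loss of ENL (11.0%) and for EPB42 and ADD2 between the knockouts (19.2%). In the HEL KD it was seen for TMOD1 (5.84%). SLC4A1 also showed it there, but the filter fixed the direction of its difference.

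**Figure D1:**
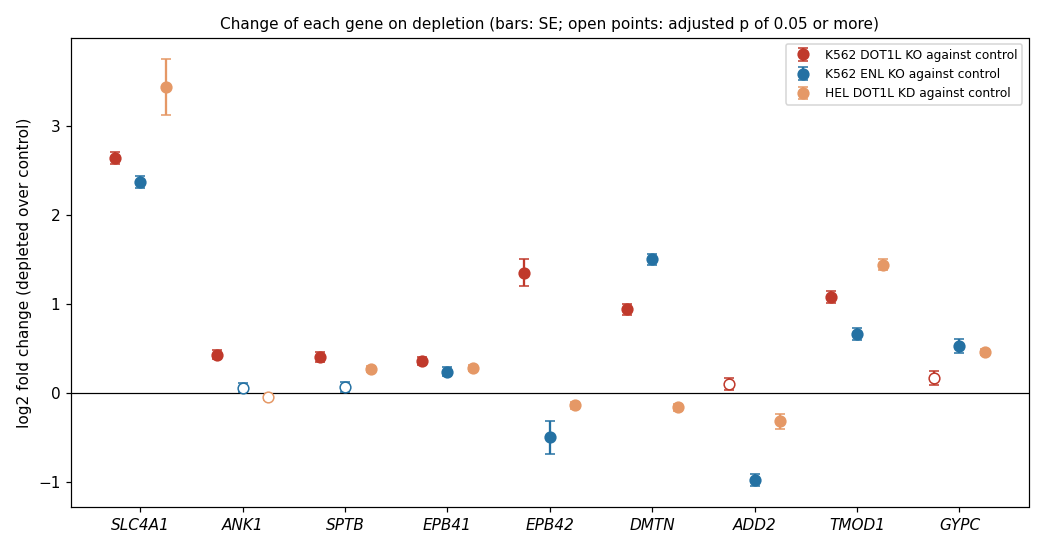
Change of each gene on depletion, as the log2 fold change of depleted over control libraries, for the K562 DOT1L KO, the K562 ENL KO and the HEL DOT1L KD. Points are estimates of edgeR's quasi-likelihood fit, bars are standard errors and open points did not pass an adjusted p of 0.05. SLC4A1 stands highest in all 3 comparisons, but in HEL it entered the test only through the KD libraries. EPB42 and DMTN lie above 0 in the DOT1L KO and below 0 in the HEL KD.

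SLC4A1 (chr17:44248390-44268134, minus strand of GRCh38, 20 exon blocks) had the highest fold change of the 9 genes in each comparison with a control. In HEL it entered the test only through the KD libraries and had to be higher in them. Its level was 33.3 and 33.0 CPM in the K562 controls, 207, 204 and 208 CPM in the DOT1L KO, and 177, 177 and 160.3 CPM in the ENL KO. All knockout libraries lay far above the controls, and the 3 DOT1L KO libraries lay above the 3 ENL KO libraries. The rise was 6.22-fold in the DOT1L KO (log2 fold change 2.64 ± 0.07 SE, adjusted p = 9.93e-12) and 5.18-fold in the ENL KO (2.37 ± 0.07, adjusted p = 2.60e-11). Among 14301 genes, SLC4A1 ranked 637th from the highest fold change in DOT1L KO cells and 139th in ENL KO cells. Between the knockouts it was higher in the DOT1L KO (log2 fold change 0.27 ± 0.05, adjusted p = 5.33e-04).

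In HEL, SLC4A1 was near the limit of detection without knockdown. The control libraries held 6 and 7 reads, or 0.479 and 0.556 CPM, and the KD libraries 72 and 69 reads, or 5.73 and 5.61 CPM. The groups did not overlap, and the estimated rise was 10.8-fold (log2 fold change 3.43 ± 0.32 SE, adjusted p = 1.48e-13). The HEL controls lay under the level of 0.798 CPM that the filter on low counts asks for. The gene thus entered the test only through the KD libraries and had to be higher in them. Even after knockdown the HEL level stayed below that of the K562 controls, although levels of the 2 lines come from separately normalised tables of reads and fragments and were not tested against each other.

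**Figure D2:**
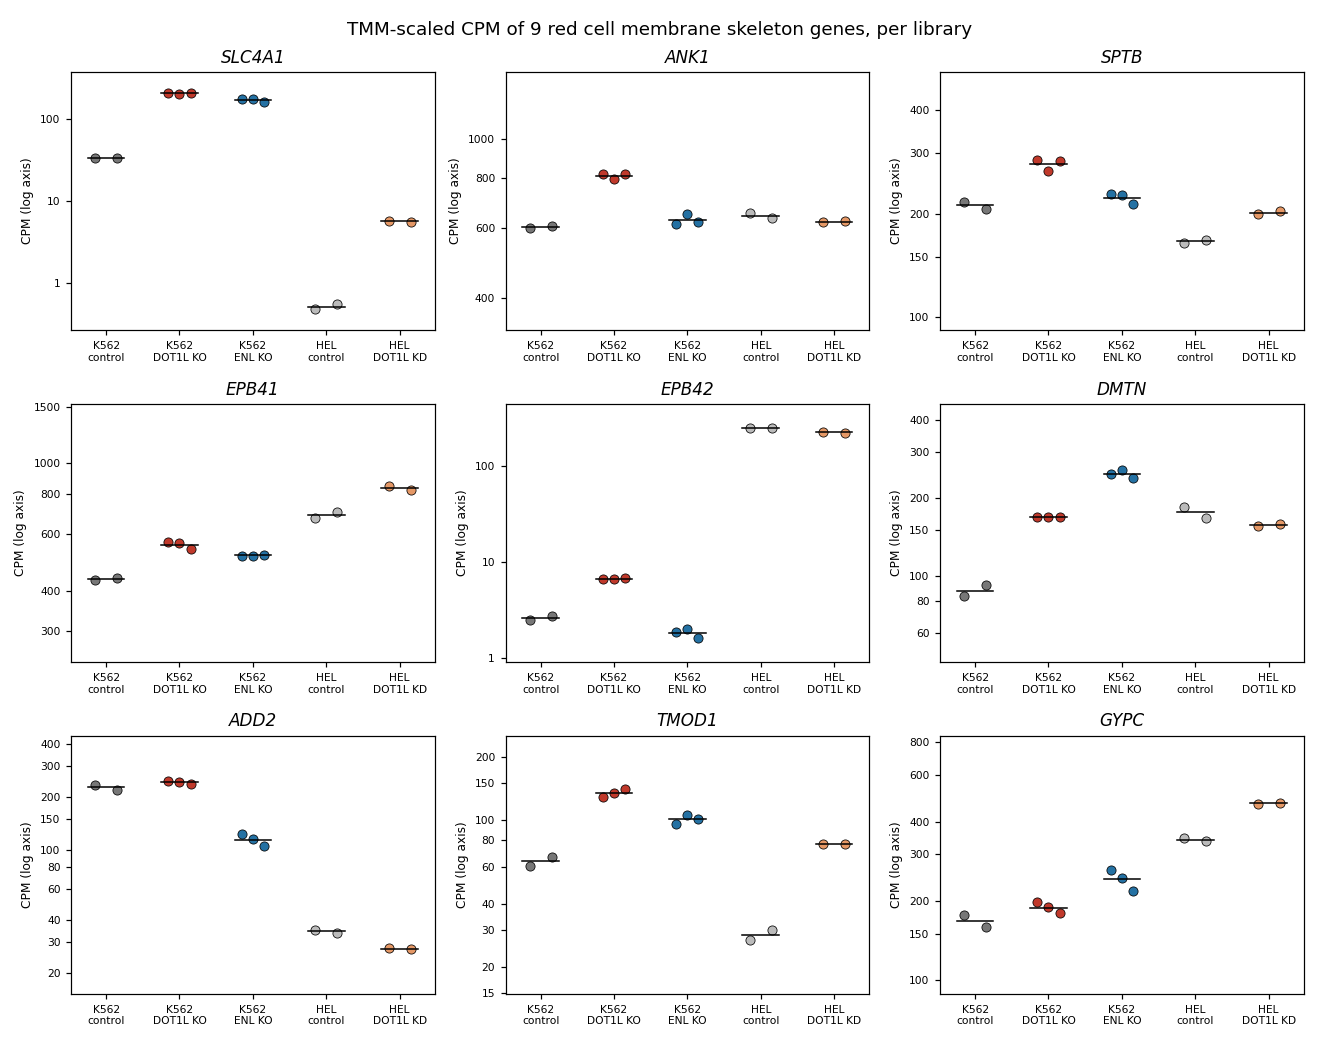
Level of each of the 9 genes in every library, as TMM-scaled CPM on a logarithmic axis whose range differs between panels. Points are libraries and lines are group means, for 2 K562 control, 3 DOT1L KO, 3 ENL KO, 2 HEL control and 2 HEL KD libraries; SLC4A1 rises from 33.0 to 33.3 CPM in K562 controls to over 160 CPM in all 6 knockout libraries, and EPB42 stays under 7 CPM in all K562 libraries and over 220 CPM in all HEL libraries.

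ANK1, the ankyrin that holds band 3 to spectrin, lies at chr8:41653225-41896762 (minus strand, 46 exon blocks) and was among the most abundant of the 9 genes. It was at 598 and 606 CPM in K562 controls, 817, 794 and 816 CPM in the DOT1L KO, and 611, 648 and 620.4 CPM in the ENL KO. The DOT1L KO libraries stood above the other 5, and the ENL KO libraries lay close to the controls. ANK1 rose 1.34-fold in the DOT1L KO (log2 fold change 0.43 ± 0.05 SE, adjusted p = 8.27e-06), whereas its value in the ENL KO was 0.06 ± 0.05 (adjusted p = 0.374). In HEL it was at 651 and 633 CPM in controls and 621 and 622 CPM in the KD, a log2 fold change of -0.05 ± 0.03 (adjusted p = 0.170). Without HEL control replicate 2 that value was -0.07 and passed (adjusted p = 0.0339), and with upper-quartile factors it turned to 0.03.

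EPB42, the partner of band 3 and ankyrin (chr15:43197228-43221125, minus strand, 13 exon blocks), whose promoter carries the AGATAA pair shown above, had levels far apart in the tables of the 2 lines. In K562 it was scarce, at 2.51 and 2.74 CPM in controls, 6.68, 6.66 and 6.77 CPM in the DOT1L KO and 1.88, 2.00 and 1.63 CPM in the ENL KO. The 3 groups did not overlap, with the DOT1L KO highest and the ENL KO lowest. EPB42 rose 2.55-fold in the DOT1L KO (log2 fold change 1.35 ± 0.15 SE, adjusted p = 5.14e-06) and was 3.61-fold higher there than in the ENL KO (1.85 ± 0.14, adjusted p = 8.01e-08). Its decrease in the ENL KO of 0.50 on the log2 scale only just passed (adjusted p = 0.0385) and rested on 25 to 58 fragments per library. That call was lost in 10 alternative settings, among them DESeq2 (adjusted p = 0.109) and the omission of either control replicate (0.0829 and 0.179), of DOT1L KO replicate 1 or 2 (0.0571 and 0.0512) or of ENL KO replicate 1 or 3 (0.0709 and 0.0937).

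In HEL, EPB42 was at 248 and 248 CPM in controls and 229 and 222 CPM in the KD. It fell by 0.14 on the log2 scale (SE 0.04, adjusted p = 8.15e-04), a decrease that did not pass with upper-quartile factors (adjusted p = 0.122). Per kilobase of exonic sequence, the ratio of EPB42 to SLC4A1 was 0.155 in K562 controls, 0.0634 in DOT1L KO cells and 0.0208 in ENL KO cells. The same ratio was 939 in HEL controls, where SLC4A1 rested on 6 and 7 reads, and 77.5 in the KD. EPB42 was thus below SLC4A1 in all K562 libraries and above it in all HEL libraries.

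SPTB, the erythroid beta spectrin (chr14:64746283-64879907, minus strand, 36 exon blocks), moved little. It was at 217 and 207 CPM in K562 controls, 287, 267 and 285 CPM in the DOT1L KO, and 228, 226 and 213 CPM in the ENL KO. The DOT1L KO libraries lay above all others, and the ENL KO range overlapped that of the controls. It rose 1.32-fold in the DOT1L KO (log2 fold change 0.40 ± 0.06 SE, adjusted p = 6.33e-05), its value in the ENL KO was 0.07 ± 0.06 (adjusted p = 0.390), and the difference between the knockouts was 0.33 ± 0.05 (adjusted p = 7.48e-05). In HEL, SPTB rose 1.21-fold, from 165 and 168 CPM to 199 and 204 CPM (log2 fold change 0.27 ± 0.04, adjusted p = 1.59e-08).

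Exons of PLEKHG3 on the opposite strand share 3408 bases with SPTB, 31.7% of its exonic length, and whether strand was used in counting is not given in the sources used here, so the SPTB values are uncertain to that extent. PLEKHG3 was at 32.1 and 34.8 CPM in HEL controls and rose to 45.0 and 45.1 CPM in the KD, and in K562 it was below 1 CPM in every library. Its part in the SPTB values was not tested. The ratio of SPTB to ANK1 per kilobase was 0.305, 0.299 and 0.307 in the K562 control, DOT1L KO and ENL KO groups, with library ranges that overlapped. In HEL it was 0.225 in controls and 0.280 in the KD, and these ranges did not overlap.

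EPB41, which joins spectrin and actin to glycophorin C (chr1:28887091-29120046, plus strand, 23 exon blocks), rose in every comparison with a control. Its level was 432 and 439 CPM in K562 controls, 568, 566 and 541 CPM in the DOT1L KO, and 516, 515 and 518 CPM in the ENL KO. Both knockouts stood above the controls, by 1.28-fold (log2 fold change 0.36 ± 0.05 SE, adjusted p = 3.64e-05) and 1.18-fold (0.24 ± 0.05, adjusted p = 0.00120). The difference between the knockouts, 0.11 ± 0.04, barely passed (adjusted p = 0.0352), and it no longer did without the filter on low counts (0.156) or when any single K562 library other than DOT1L KO replicate 3 was left out (the highest adjusted p was 0.112). In HEL, EPB41 rose 1.22-fold, from 675 and 703 CPM to 852 and 825 CPM (0.28 ± 0.03, adjusted p = 3.35e-12). TMEM200B on the opposite strand shares 622 exonic bases, 9.89% of EPB41, and was below 1 CPM in every library of both lines.

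GYPC, glycophorin C, the membrane anchor of that junction (chr2:126655935-126696675, plus strand, 5 exon blocks), rose more with loss of ENL than with loss of DOT1L in K562. It was at 176 and 159 CPM in controls, 197, 189 and 179 CPM in the DOT1L KO, and 261, 245 and 217 CPM in the ENL KO. The 3 groups did not overlap, but the lowest DOT1L KO library stood only just above the higher control. GYPC rose 1.44-fold in the ENL KO (log2 fold change 0.53 ± 0.08 SE, adjusted p = 1.13e-04), and the ENL KO level exceeded that of the DOT1L KO by 1.28-fold (adjusted p = 5.29e-04). In the DOT1L KO its value was 0.17 ± 0.08 (adjusted p = 0.0790), and it passed when ENL KO replicate 1 or 3 was left out of the shared fit (0.0437 and 0.0324), with only the compared groups in the fit (0.0450) and with scaling by library size only (0.0243). In HEL it rose 1.37-fold, from 345 and 338 CPM to 467 and 472 CPM (0.46 ± 0.03, adjusted p = 1.78e-18).

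DMTN, dematin, which bundles actin at the junction (chr8:22048955-22082527, plus strand, 21 exon blocks), rose in both knockouts and more in the ENL KO. It was at 83.4 and 91.7 CPM in K562 controls, at 168 CPM in each of the 3 DOT1L KO libraries, and at 246, 256 and 239 CPM in the ENL KO. The 3 groups were well apart. The rise was 1.92-fold in the DOT1L KO (log2 fold change 0.94 ± 0.06 SE, adjusted p = 2.33e-08) and 2.82-fold in the ENL KO (1.50 ± 0.06, adjusted p = 5.18e-10), and the ENL KO exceeded the DOT1L KO by 1.47-fold (adjusted p = 5.40e-07). In HEL, DMTN was at 184 and 167 CPM in controls and 156 and 158 CPM in the KD. It fell by 0.16 on the log2 scale (SE 0.04, adjusted p = 7.83e-04), and this call was lost without HEL control replicate 1 (adjusted p = 0.0749) and with upper-quartile factors (0.0653).

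ADD2, beta adducin, which caps actin and recruits spectrin (chr2:70656784-70768243, minus strand, 18 exon blocks), fell with loss of ENL. It was at 235 and 218 CPM in K562 controls, 248, 243 and 237 CPM in the DOT1L KO, and 123, 115 and 105 CPM in the ENL KO. The ENL KO libraries lay far below the other 5. The decrease was 1.98-fold against controls (log2 fold change -0.98 ± 0.06 SE, adjusted p = 5.70e-08), and the DOT1L KO level exceeded that of the ENL KO by 2.12-fold (adjusted p = 2.47e-09). Against controls, the DOT1L KO value was 0.10 ± 0.06 (adjusted p = 0.220). In HEL, ADD2 was lower throughout, at 35.1 and 33.9 CPM in controls and 27.8 and 27.4 CPM in the KD, and fell 1.25-fold on knockdown (-0.32 ± 0.08, adjusted p = 5.19e-04).

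ADD1, the alpha adducin found in most cells, rose in the DOT1L KO by 0.18 ± 0.05 and fell in the ENL KO by 0.14 on the log2 scale (adjusted p = 0.0105 and 0.0435). The ratio of ADD2 to ADD1 per kilobase was 0.455 in K562 controls, 0.431 in DOT1L KO cells and 0.252 in ENL KO cells. It was 0.0744 in HEL controls and 0.0554 in the KD. The ENL KO ratios ran from 0.234 to 0.270 and lay below every other K562 library, while the control and DOT1L KO ranges overlapped.

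TMOD1, the tropomodulin that caps the slow-growing end of red cell actin (chr9:97501180-97601743, plus strand, 11 exon blocks), rose in all 3 comparisons with a control. It was at 60.8 and 66.7 CPM in K562 controls, 129, 135 and 140.1 CPM in the DOT1L KO, and 96.0, 106 and 101 CPM in the ENL KO. The groups did not overlap, with the DOT1L KO highest. TMOD1 rose 2.12-fold in the DOT1L KO (log2 fold change 1.08 ± 0.07 SE, adjusted p = 2.10e-08) and 1.58-fold in the ENL KO (0.66 ± 0.07, adjusted p = 4.01e-06), and the DOT1L KO exceeded the ENL KO by 1.34-fold (adjusted p = 3.14e-05). In HEL it rose 2.70-fold, from 26.8 and 30.0 CPM to 76.7 and 77.1 CPM (1.44 ± 0.07, adjusted p = 1.91e-25), the 200th highest fold change of 12635 genes.

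TSTD2 on the opposite strand shares 1664 exonic bases with TMOD1, 48.6% of its exonic length, so with strand unstated the TMOD1 values are uncertain as well. TSTD2 did not follow the rise of TMOD1 in all comparisons: its log2 fold change was -0.07 ± 0.09 in the DOT1L KO (adjusted p = 0.552), 0.30 ± 0.09 in the ENL KO (adjusted p = 0.0162) and -0.16 ± 0.08 in the HEL KD (adjusted p = 0.0955). TMOD3, the widely expressed tropomodulin, had a log2 fold change of -0.01 ± 0.08 in the DOT1L KO (adjusted p = 0.903), and it fell by 0.55 in the ENL KO (adjusted p = 1.41e-04) and by 0.20 in the HEL KD (adjusted p = 2.70e-05). The ratio of TMOD1 to TMOD3 per kilobase went from 0.661 in K562 controls to 1.42 in DOT1L KO cells and 1.54 in ENL KO cells. In HEL it went from 0.221 in controls to 0.685 in the KD. On full exonic lengths TMOD1 thus exceeded TMOD3 in all knockout libraries of K562 and in none of the control or HEL libraries. Which gene stands higher depends on the length used for TMOD1, of which 48.6% is shared with TSTD2.

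**Figure D3:**
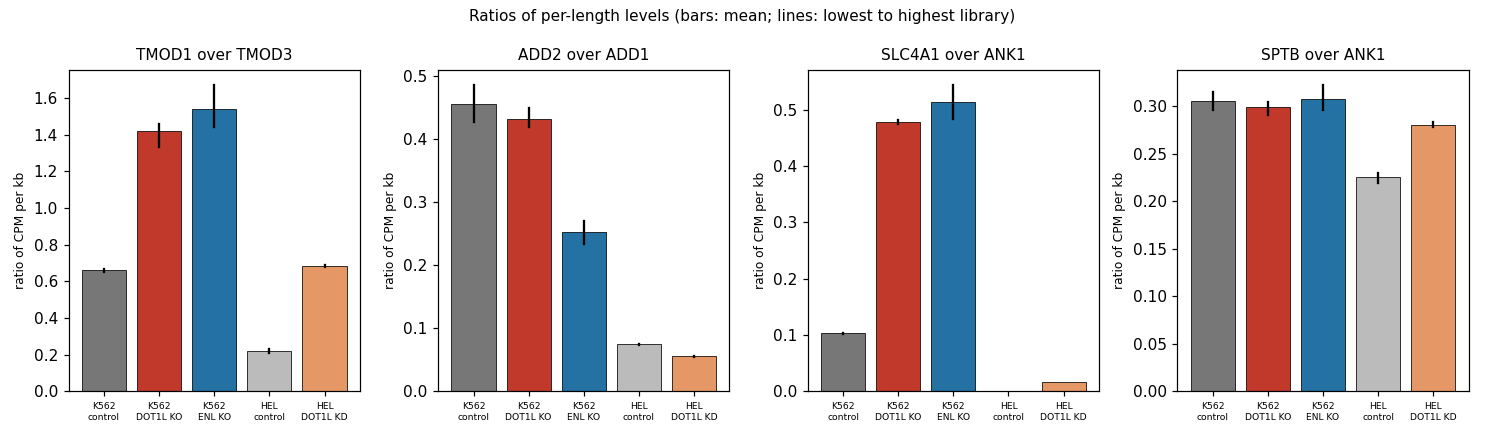
Ratios of levels per kilobase within 4 pairs of genes, TMOD1 over TMOD3, ADD2 over ADD1, SLC4A1 over ANK1 and SPTB over ANK1, in the 5 groups. Bars are means of the libraries and black lines run from the lowest to the highest library. On full exonic lengths, TMOD1 over TMOD3 is above 1 only in the 2 K562 knockouts. SPTB over ANK1 stays between 0.290 and 0.322 in all K562 libraries.

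Levels were compared between genes as CPM per kilobase of exonic length. The full length was used for SPTB and TMOD1, including bases shared with opposite-strand genes, so their ranks are uncertain. In K562 controls the order was GYPC (81.0), EPB41 (69.2), ANK1 (64.8), DMTN (21.7), ADD2 (20.2), SPTB (19.8), TMOD1 (18.6), SLC4A1 (6.69) and EPB42 (1.03). The ranges of neighbours from DMTN to TMOD1 overlapped, and the other neighbours were apart. GYPC was highest in all 5 groups, and the lowest gene was EPB42 in K562 and SLC4A1 in HEL. In the DOT1L KO, SLC4A1 moved from rank 8 to rank 4 at 41.6, level with DMTN at 41.6, and GYPC (91.2), EPB41 (88.7) and ANK1 (87.2) could not be separated in neighbouring pairs. In the ENL KO, SLC4A1 was at rank 5 with 34.6 behind DMTN at 61.1, and ADD2 fell to 10.2.

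In HEL controls the order was GYPC (165), EPB41 (109), EPB42 (97.6), ANK1 (69.2), DMTN (43.4), SPTB (15.5), TMOD1 (8.30), ADD2 (3.07) and SLC4A1 (0.104), with all neighbours apart. Knockdown left SLC4A1 last at 1.14 and brought TMOD1 (22.4) above SPTB (18.8). The level of the most abundant gene exceeded that of the least abundant 78.6-fold in K562 controls, 34.5-fold in the DOT1L KO and 162-fold in the ENL KO, and 1587-fold in HEL controls and 199-fold in the KD. The ratio of SLC4A1 to ANK1 was 0.103 in K562 controls, 0.478 in DOT1L KO cells and 0.513 in ENL KO cells. In HEL it was 0.00151 in controls and 0.0171 in the KD, so SLC4A1 was far below its anchor in every HEL library.

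**Figure D4:**
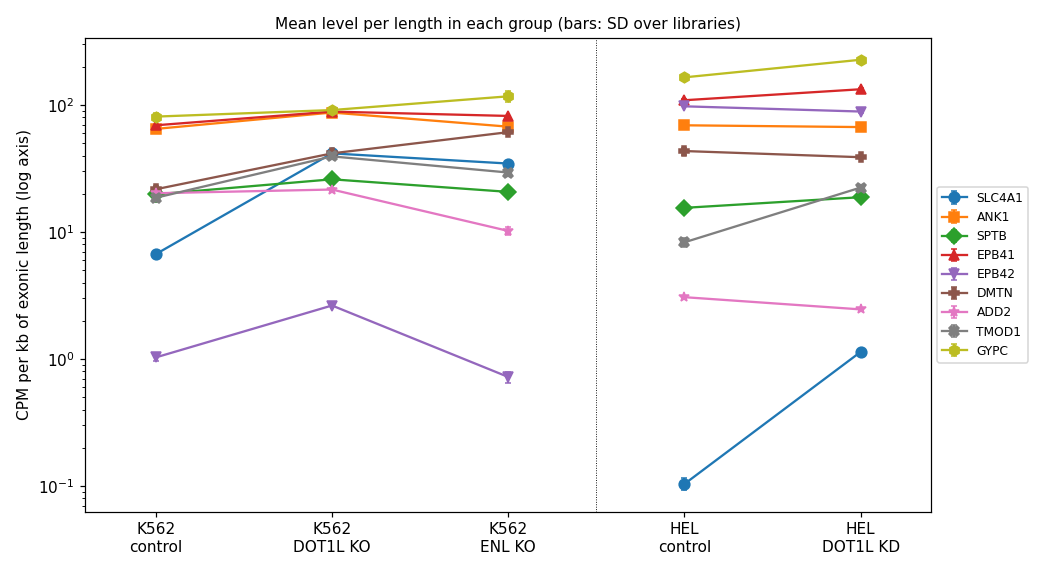
Mean level of each of the 9 genes in the 5 groups, as CPM per kilobase of exonic length on a logarithmic axis. Bars are SD over 2 or 3 libraries, and the dotted line parts the separately normalised tables of K562 and HEL; GYPC is highest in each group, EPB42 is lowest in K562 at 0.723 to 2.64, and SLC4A1 is lowest in HEL at 0.104 and 1.14.

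To ask whether DOT1L depletion acted alike in K562 and HEL, an interaction term was tested in 9 libraries fitted jointly. Cell line cannot be told apart there from knockout against knockdown, or from fragment against read counting. The change differed between lines for 6 of 9 genes, 4 with the higher value in K562 and 2 with the lower. Of the 15367 genes tested, 38.9% differed (19.1% higher and 19.8% lower in K562), and 12.7% did so by 2-fold or more, as EPB42 and DMTN did. The change in K562 minus that in HEL was 1.47 ± 0.13 on the log2 scale for EPB42 (SE, adjusted p = 8.69e-09), 1.08 ± 0.08 for DMTN (adjusted p = 9.93e-10), 0.46 ± 0.06 for ANK1 (adjusted p = 7.21e-06) and 0.40 ± 0.09 for ADD2 (adjusted p = 0.00158). For TMOD1 and GYPC the change was larger in HEL, with differences of -0.37 ± 0.10 (adjusted p = 0.00459) and -0.31 ± 0.08 (adjusted p = 0.00397). The TMOD1 difference did not pass without HEL control replicate 1 (-0.30, adjusted p = 0.0559). The differences for SLC4A1 (-0.82 ± 0.30, adjusted p = 0.0738), SPTB (0.10 ± 0.08, adjusted p = 0.305) and EPB41 (0.06 ± 0.07, adjusted p = 0.559) did not pass, which does not show that these genes responded alike.

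Of 28 other components of the red cell membrane complexes, 22 passed in the DOT1L KO (17 higher, 5 lower), 21 in the ENL KO (18 higher, 3 lower) and 24 of the 26 tested in the HEL KD (18 higher, 6 lower). Of all genes tested, 51.1%, 41.0% and 55.0% passed in these comparisons. The median log2 fold changes of the list were 0.50, 0.37 and 0.20, beside 0.011, 0.003 and 0.013 over all genes. Among those past the threshold with at least 5 CPM in the higher group, the largest changes in the DOT1L KO were rises of GYPB (2.46 ± 0.14 SE), a glycophorin, AQP1 (2.45 ± 0.07), the red cell water channel, and RHCE (2.22 ± 0.12), a Rh antigen carrier of the band 3 complex. In the ENL KO they were rises of STOM (1.76 ± 0.07), the raft protein stomatin, RHCE (1.66 ± 0.12) and XK (1.05 ± 0.08), the partner of the Kell antigen. STOM, by contrast, fell in the DOT1L KO by 0.64 and differed between the knockouts by -2.41 ± 0.06 (adjusted p = 2.48e-12), the largest difference among genes of the list above that level. In HEL the largest changes were rises of GYPB (1.61 ± 0.05), AQP1 (1.13 ± 0.08) and RHD (0.98 ± 0.04). GYPB, RHCE and RHD have near-identical copies, so reads may have been split between copies and these values are uncertain.

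Among 32 paralogues of the 9 genes that act mainly outside the red cell, 26 were tested in K562. In the DOT1L KO 23 passed (16 higher, 7 lower) and in the ENL KO 14 (3 higher, 11 lower), with medians of 0.43 and -0.15 beside 0.011 and 0.003 over all genes, of which 51.1% and 41.0% passed. SLC4A7, a sodium bicarbonate cotransporter of the band 3 family, went the other way from SLC4A1 in the DOT1L KO and fell by 3.08 on the log2 scale (SE 0.16, adjusted p = 2.29e-09), from 12.7 to 1.50 CPM. EPB41L4A rose by 3.02 ± 0.16 in DOT1L KO cells and 3.40 ± 0.16 in ENL KO cells, while EPB41L2 fell by 1.78 in the DOT1L KO. In the ENL KO, ANK3, the ankyrin of neurons and epithelia, fell by 1.22 and TMOD2 by 1.02. Of 20 paralogues tested in HEL, 14 passed, 7 in each direction, with a median of 0.06 beside 0.013 over all genes, of which 55.0% passed. TGM5, a transglutaminase related to EPB42, fell by 2.29 on the log2 scale, and ABLIM1, a relative of dematin, rose by 1.69.

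All 8 erythroid transcription factors tested in K562 passed in the DOT1L KO, 7 as higher, where 51.1% of all genes passed and 26.9% were higher. In the ENL KO 7 of 8 passed (41.0% of all genes) and in the HEL KD 6 of 9 (55.0%). With loss of DOT1L in K562, GATA1 (0.60), TAL1 (0.88), KLF1 (0.72), LDB1 (0.25), GFI1B (0.49), ZFPM1 (0.88) and NFE2 (0.37) rose, and LMO2 fell by 0.57 on the log2 scale. In the ENL KO, GATA1 (0.50), TAL1 (0.16), KLF1 (0.43), LDB1 (0.21), GFI1B (1.04) and ZFPM1 (0.81) rose, NFE2 fell by 0.26, and LMO2 was at 0.19 (adjusted p = 0.0736). In HEL, TAL1 (0.22), KLF1 (0.13), LMO2 (0.21), ZFPM1 (0.34) and NFE2 (0.15) rose and LDB1 fell by 0.14, while GATA1 (-0.06, adjusted p = 0.144), GFI1B (-0.07, adjusted p = 0.185) and BCL11A (-0.28, adjusted p = 0.269) did not pass.

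The 5 genes whose pattern over the 12 libraries was closest to that of SLC4A1, among 11644 genes tested in both tables, were SYP, RUNDC3A, ACSL6, C11orf21 and HMCN1. Likeness was the mean absolute difference in log2 CPM after the control mean of each line was set to 0, and it was 0.382, 0.417, 0.459, 0.531 and 0.544 in that order. RUNDC3A lies on chromosome 17 on the plus strand, 40425 bases upstream of the listed start of SLC4A1, and held few counts, 2 to 4 in the controls of both lines, 36 to 41 in the DOT1L KO, 9 to 18 in the ENL KO and 15 to 23 in the KD. ACSL6 likewise held 1 to 3 reads in HEL controls, and HMCN1 held 6 to 8. In HEL controls RUNDC3A, ACSL6 and HMCN1, like SLC4A1, lay under the filter level of 0.798 CPM. These genes entered the HEL test only through the KD libraries. Their rise in HEL, which counts towards the likeness, was thus fixed in direction. RUNDC3A also entered the K562 test only through knockout libraries. Of the other 8 genes, TMOD1 was closest to SLC4A1 at rank 137, followed by DMTN at 241 and GYPC at 1084, and ADD2 was farthest at 10585.

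Genes within 100 kb of the 9 genes passed at shares near those of all genes. In the DOT1L KO 15 of 31 neighbours passed (48.4%), in the ENL KO 12 of 31 (38.7%) and in the HEL KD 18 of 30 (60.0%). Of all genes, 51.1%, 41.0% and 55.0% passed in these comparisons. Of 10 tested neighbours of SLC4A1, 7 rose and 1 fell in the DOT1L KO. Among the 7 was RUNDC3A, at a mean of 0.140 CPM in K562 controls, under the filter level of 0.470 CPM. It entered the K562 test only through knockout libraries, so its rise was fixed in direction. All 3 tested neighbours of SPTB rose in the DOT1L KO and both tested neighbours of EPB41 rose in the HEL KD. Of all genes, 26.9% rose in the DOT1L KO, and in the HEL KD 27.0% rose and 28.0% fell. PLEKHG3, a neighbour of SPTB that overlaps its exons, held 3 fragments in each K562 control and 8, 25 and 11 in the DOT1L KO. It entered the K562 test only through DOT1L KO libraries and could only rise there. The counts of neighbours above include such genes. All 4 tested neighbours of EPB42 fell in HEL: CCNDBP1 (51 bases away), TGM5 (11470 bases), TMEM62 (12085 bases) and UBR1 (91140 bases) fell by 0.35, 2.29, 0.47 and 0.35 on the log2 scale, beside the decrease of 0.14 of EPB42 itself. These loci were singled out after their values were seen. In the ENL KO, UBR1 and TMEM62 fell by 0.42 and 0.35 and CCNDBP1 was at -0.18 (adjusted p = 0.0780), and in the DOT1L KO CCNDBP1 rose by 0.29 (adjusted p = 0.00613) while UBR1 and TMEM62 were both at 0.06 and did not pass.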

How the data were processed

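The authors deposited 2 tables of whole-number counts per gene (reads in HEL, fragments in K562), with the exonic length and exon positions of each gene. Polyadenylated RNA was made into strand-specific libraries, per the labels' protocols. The submitters' processing notes name fastp 0.13.1, HISAT2 2.1.0, Bowtie2 2.3.4.1, featureCounts 1.6.1, deepTools and the builds hg38 and hg19, without saying which was used for which assay. All 9 genes overlap their RefSeq positions on GRCh38.p14.

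Samples were grouped by the labels. Genes were kept with filterByExpr (minimum count 10, minimum total count 15), scaled with TMM factors and tested with the quasi-likelihood test of edgeR 4.0.16 in R 4.3.3, with all 8 K562 libraries in one fit and the 4 HEL libraries in another. Benjamini-Hochberg adjustment ran over all genes tested, and the threshold was 0.05. Standard errors are the absolute log2 fold change divided by the square root of F, and the procedure was tested on simulated data. DESeq2 1.42.0, other scalings and filters, a replicate block and omission of each library served as alternatives. No molecular identifiers mark PCR copies, so the floor of 3 counts covers counting error only.

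The members and gene lists were chosen with earlier results of these data known. From the lists of membrane components and paralogues, the 3 largest changes past the threshold per comparison with at least 5 CPM in the higher group were named. ADD1 and TMOD3 were added as partners of members, with their values known. ADD1, ADD3 and TMOD3 stand in both lists. GATA1, KLF1 and TAL1 are both erythroid markers and transcription factors of the third list. Values of some listed genes are not reported here.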

Additional observations from a re-analysis of the deposited data

Results flagged for a closer look

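For 6 of the 9 genes the change on DOT1L depletion differed between K562 and HEL in the interaction test of edgeR's quasi-likelihood fit. The change in K562 exceeded that in HEL by 1.47 on the log2 scale for EPB42, by 1.08 for DMTN, by 0.46 for ANK1 and by 0.40 for ADD2. For TMOD1 and GYPC the difference was -0.37 and -0.31, a larger rise in HEL. EPB42 and DMTN rose in K562 and fell in HEL, although their decreases in HEL were small. Cell line, knockout against knockdown and fragment against read counting cannot be told apart in this test.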

How the results depend on the processing

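Values of single genes kept their direction and side of the threshold in 619 combinations of gene, comparison and alternative, lost the call in 48, gained it in 7 and turned sign in 1, ANK1 in HEL with upper-quartile factors (0.03). Asking also for a change of at least 2-fold left 3 of 9 genes in the DOT1L KO, 2 in the ENL KO and 2 between the knockouts. It left 2 in the HEL KD, SLC4A1 with its fixed direction among them, and 2 in the interaction. Of all genes, 2265, 1573, 2744, 738 and 1950 were left in place of 7305, 5863, 8606, 6951 and 5980. DESeq2 called 4561 genes in HEL in place of 6951, and the cause was not tested. When 1 library was left out, 7 to 8, 6 to 7, 8 to 9, 7 to 9 and 5 to 6 of the 9 genes passed in the same order. Groups left with 1 library were assumed to vary like the others.

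Same-numbered libraries of K562 correlated by 0.053 to 0.220 in their deviations and differently numbered ones by -0.158 to 0.088, while those of HEL correlated by 0.000. DOT1L KO 2 was closer to ENL KO 3 (0.071) than to ENL KO 2 (0.053). Control 2 was at 0.088 with ENL KO 3 and 0.060 with ENL KO 2. Because control columns 2 and 3 were identical, both values may belong to a same-numbered pair and cannot decide on pairing. Since not every same-numbered pair was above 0.1, the numbers were not taken as pairs. With the replicate number as a block, 9, 6, 9, 8 and 6 genes passed in the same order: ADD2 (adjusted p = 0.0151) and GYPC (2.59e-04) were gained in the DOT1L KO and EPB42 (0.0574) was lost in the ENL KO. Counts in K562 controls rest on 2 libraries, and SLC4A1 in HEL controls on 6 and 7 reads.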
